A study of Mus musculus with 14 samples.

Results

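Goblet cells are the secretory cells of the intestinal epithelium that make the mucus layer, and the expression of 8 genes of these cells was followed across healthy intestine, intestinal adenomas and a colon carcinoma cell line. The 8 genes were *Muc2*, *Tff3*, *Fcgbp*, *Zg16*, *Agr2*, *Spdef*, *Retnlb* and *Spink4*, chosen as established products or regulators of this cell type. They were found on the array by gene name alone, with 1 probe each, among 36282 gene names. Total RNA of whole tissue or cells was hybridized to one-color mouse arrays, 1 array per sample and 14 in all. Small intestine was represented by 3 arrays and colon by 3 arrays, all labelled C57BL/6J. Adenomas were represented by 3 arrays and the tissue adjacent to adenomas by 2 arrays, labelled APCmin/+. The source names of the small intestine, adjacent and adenoma samples give no segment of the intestine. Differences of site can therefore not be told apart from those of tissue. The remaining 3 arrays held RNA of CT26, a mouse colorectal carcinoma cell line grown in culture. Animals carrying the Min allele have a truncating mutation in one copy of *Apc*, a negative regulator of Wnt signaling, in all of their cells. All mice were kept on a C57BL/6J background, and the labels give no age and name no treatment. The study describes its wild type mice as adults over 8 weeks old. It reports that Min mice seen to suffer were given the analgesic buprenorphine, and the labels do not say which. The study lists the small intestine samples under different mice and all adenoma and adjacent pieces under 1 mouse, so that the spread between those arrays is that between pieces of 1 animal. It lists 1 of the colon samples under an APCmin/+ mouse, against the label. Nothing states that the CT26 arrays came from separate cultures, so p-values there measure a spread that may be technical.

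Mucus is built from Muc2, a gel-forming mucin that is folded in the endoplasmic reticulum, heavily O-glycosylated in the Golgi and stored in granules. Fcgbp is a mucus protein associated with Muc2, Zg16 is a lectin that binds bacteria, and Tff3 is a trefoil peptide released together with the mucin. Retnlb is an antimicrobial resistin-like protein and Spink4 is a small secreted protein with a Kazal-type domain. Agr2 is a protein disulfide isomerase of the endoplasmic reticulum required for Muc2 production, and Spdef is an ETS transcription factor that drives the maturation of goblet cells. In the crypt, Notch signaling through Hes1 restrains the secretory fate and Atoh1 promotes it.

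The probes are shown because every level below rests on them. Positions refer to NCBI37 (mm9), as named by the scanner output. The *Muc2* probe lies at chr7:148940000-148940059, that of *Tff3* at chr17:31262279-31262338, that of *Fcgbp* at chr7:28905517-28905576 and that of *Zg16* at chr7:134193837-134193896. The *Agr2* probe lies at chr12:36730506-36730565, that of *Spdef* at chr17:27851401-27851460 and that of *Retnlb* at chr16:48818874-48818933. The *Spink4* probe has 60 bases like the others but spans 2125 bases of the genome at chr4:40876206-40878330, so it crosses an intron and reads spliced RNA. Whether a probe reads a coding or an untranslated stretch is not given in the sources used here. The first 30 bases of each are printed as deposited, 5′ to 3′, with no base marked.
Muc2: tgtctccgtcatgaaggagatttcctacaa
Tff3: ctgctgcaggccaataaaggagccaggagt
Fcgbp: gtggaaactttgatggggaccaaaccaacg
Zg16: aacactgtcctccgtttcattagtgggcaa
Agr2: gtcaggagaccagaaggcagaagcactgtg
Spdef: tgtctgtaccctgcgttgggaagccagggg
Retnlb: aggaggttgagaaaccaatttcaaaatgat
Spink4: acctttgcctgacccggatgaaaaccatga
The GC content of these probes ran from 43.3% for *Retnlb* to 55.0% for *Spdef*. No other probe of the array shared a run of 20 bases with any of them.

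Promoters are shown for the genes that the RefSeq table of GRCm38.p6 holds, namely *Muc2* at chr7:141690090-141690339 on the plus strand, *Fcgbp* at chr7:28070986-28071235 on the plus strand, *Agr2* at chr12:35992675-35992924 on the plus strand and *Spdef* at chr17:27728952-27729201 on the minus strand. These 4 genes include *Agr2* and *Spdef*, which moved together in adenomas, and *Fcgbp*, which moved the other way. Each line gives the 250 bases before the transcription start, 5′ to 3′ on the gene's strand. Capitals mark matches on either strand to 6 short motifs, those of FOXA, CDX and KLF factors, an E box, the SPDEF core and the TATA box, whose letters are spelled out with their counts.
Muc2: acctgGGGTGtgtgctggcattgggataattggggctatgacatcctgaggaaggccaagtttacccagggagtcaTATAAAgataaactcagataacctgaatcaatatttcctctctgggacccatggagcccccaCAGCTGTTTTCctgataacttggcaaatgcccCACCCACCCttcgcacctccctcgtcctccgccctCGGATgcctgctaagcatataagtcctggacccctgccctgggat
Fcgbp: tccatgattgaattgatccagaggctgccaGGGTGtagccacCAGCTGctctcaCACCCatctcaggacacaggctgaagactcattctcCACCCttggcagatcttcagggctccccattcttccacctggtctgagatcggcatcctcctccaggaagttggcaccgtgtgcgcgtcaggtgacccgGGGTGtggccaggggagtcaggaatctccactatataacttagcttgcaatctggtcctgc
Agr2: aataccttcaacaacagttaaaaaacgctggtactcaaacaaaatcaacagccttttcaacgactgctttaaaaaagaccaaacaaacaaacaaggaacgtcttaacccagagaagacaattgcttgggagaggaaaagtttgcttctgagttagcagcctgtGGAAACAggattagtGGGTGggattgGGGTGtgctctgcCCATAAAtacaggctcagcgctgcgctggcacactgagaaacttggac
Spdef: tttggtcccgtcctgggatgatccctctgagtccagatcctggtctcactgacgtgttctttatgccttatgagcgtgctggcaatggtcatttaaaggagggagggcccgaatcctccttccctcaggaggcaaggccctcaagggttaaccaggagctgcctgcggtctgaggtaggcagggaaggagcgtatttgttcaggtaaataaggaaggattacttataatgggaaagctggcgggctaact
In windows of 300 bases, which run 50 bases past the start, the E box CAGCTG occurred in *Muc2* (position -112) and *Fcgbp* (position -208), and in 16.3% of all 32851 promoters of the table. The FOXA motif TGTTTNC occurred in *Muc2* (position -108, overlapping the E box) and *Agr2* (position -87), and in 20.5% of all promoters. The SPDEF core CGGAT occurred in *Muc2* alone of the 4 genes, at position -45, and in 16.3% of all promoters. The TATA box TATAAA also occurred in *Muc2* alone, at position -174, and in 13.6% of all promoters. The CDX motif TTTATNG occurred in *Agr2* alone, at position -48, and in 10.9% of all promoters. The KLF motif CACCC, found in 57.5% of all promoters, had 4 matches in *Muc2* (a pair of them overlapping), 4 in *Fcgbp* and 3 in *Agr2*. The *Spdef* window held 0 matches to the 6 motifs, which says only that these letters are not in that window.

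Levels are given as the log2 of the background-subtracted signal minus the 75th percentile of the array. A value of 0 is therefore the signal that 75% of the probes of an array do not exceed, and 1 unit is a doubling. Per array, 46.85% to 58.21% of the probes stood well above background, and precision is limited by the small number of arrays. Each probe of the 8 genes was well above background on all 11 tissue arrays and none was saturated. In tissue, *Tff3*, *Fcgbp*, *Zg16* and *Spink4* were at or above the 99.1 percentile of all probes of their array, and *Muc2* and *Agr2* were at or above the 95.88 percentile. *Spdef* lay between the 91.77 and 98.4 percentiles. *Retnlb* ranged from the 54.03 to the 99.13 percentile, the widest span of the 8 genes.

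Colon replicate 3 stood apart from its group. Over the probes well above background on all arrays it correlated with small intestine at r = 0.9506 to 0.9687 and with the other colon arrays at r = 0.9344 to 0.9383, while these correlated with each other at r = 0.9849. The median of 10 enterocyte markers of the small intestine, such as *Fabp1* and *Sis*, was 5.80 on this array, against -2.66 and -1.57 on the other colon arrays. The median of 6 colonocyte markers, such as *Car1* and *Aqp8*, was -2.51 on it, against 6.01 and 5.36. Results on colon are therefore given with and without this array.

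**Figure D1:**
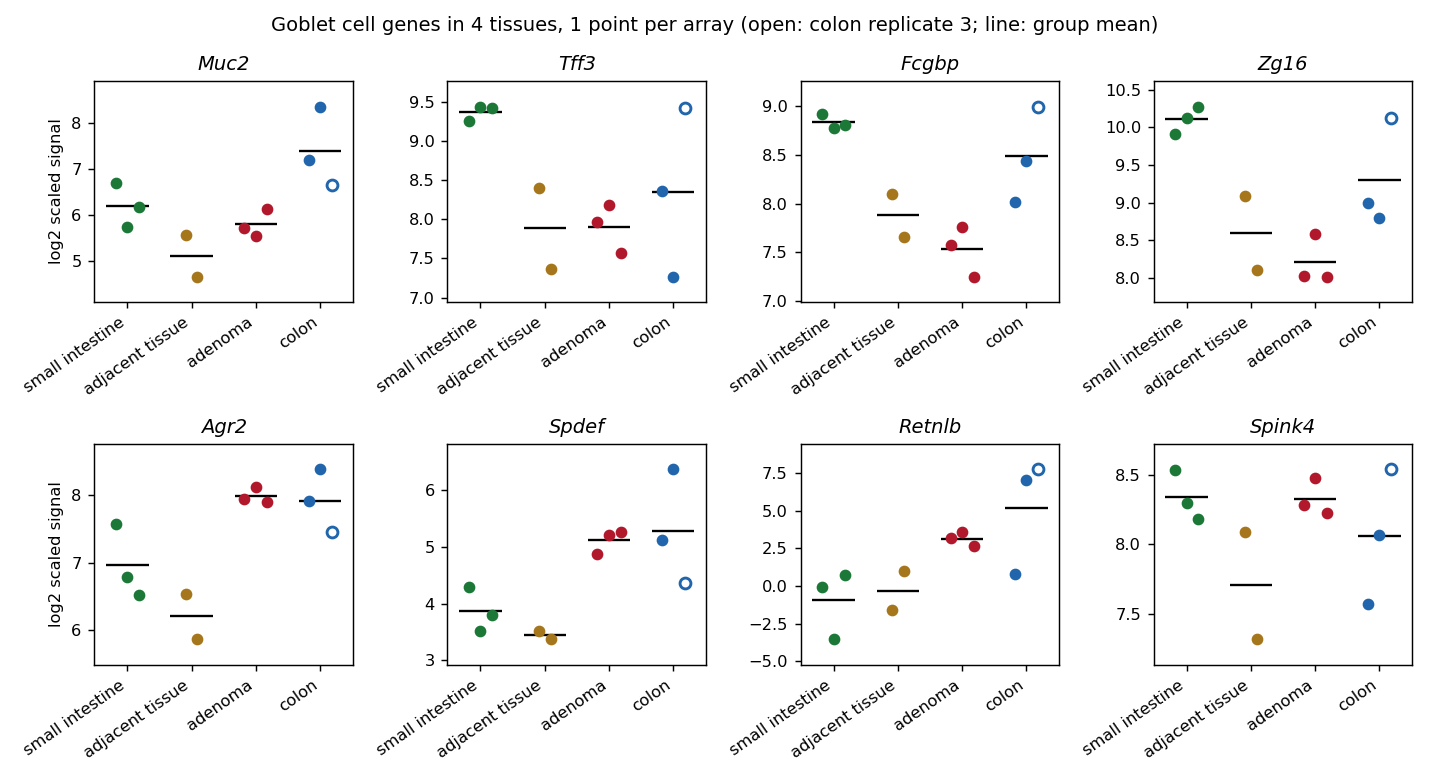
Level of each of the 8 goblet cell genes on the 11 tissue arrays, as log2 signal relative to the 75th percentile of the array (vertical axis, with its own range in each panel). Points are arrays, lines are group means and the open point is colon replicate 3; adenoma arrays lie below all small intestine arrays for *Tff3*, *Fcgbp* and *Zg16* and above all of them for *Agr2*, *Spdef* and *Retnlb*.

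In adenomas compared with healthy small intestine the goblet cell genes did not move as a block. The mucus proteins *Tff3*, *Fcgbp* and *Zg16* were underexpressed by 2.47- to 3.71-fold, and *Spdef* was overexpressed 2.37-fold. *Muc2* and *Spink4* overlapped between the groups, and *Agr2* and *Retnlb* were higher on every adenoma array without passing the thresholds. A gene was called in limma where the log2 fold change was at least 1.2 in either direction and the adjusted p (Benjamini-Hochberg) at most 0.01; SE stands for the standard error of a log2 fold change. By this rule 4 of the 8 genes were called, 1 higher and 3 lower, beside 21.9% of all 29539 probes tested (10.9% higher and 10.9% lower). Arrays did not overlap in the lower direction for 3 of the 8 genes, beside 37.1% of all probes, and in the higher direction for 3, beside 27.3%.

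*Zg16* had the largest underexpression of the 8 genes. Its level was 9.91, 10.12 and 10.27 on the small intestine arrays and 8.03, 8.59 and 8.02 on the adenoma arrays. The lowest small intestine array was thus above the highest adenoma array, and the log2 fold change was -1.89 (SE 0.215 and adjusted p = 0.000674 by limma). *Zg16* was called under all 16 alternatives computed for it, including the omission of each array. The mean of the probes of a name is among them and could not differ, since each gene has 1 probe. *Tff3* was at 9.25, 9.44 and 9.42 in small intestine and at 7.97, 8.18 and 7.58 in adenomas, again without overlap. Its log2 fold change was -1.46 (SE 0.199 and adjusted p = 0.00131 by limma). *Fcgbp*, at 8.92, 8.78 and 8.81 in small intestine, varied least of the 8 genes there (SD 0.07, n = 3). It was at 7.58, 7.76 and 7.25 in adenomas, a log2 fold change of -1.30 (SE 0.184 and adjusted p = 0.00152 by limma). Quantile normalization brought *Tff3* to -1.002 and *Fcgbp* to -1.03, and the authors' normalized table brought them to -1.02 and -0.91, so that neither reached the fold threshold. A fit of all 5 groups ended both calls as well, with limma adjusted p of 0.0271 for *Tff3* and 0.0179 for *Fcgbp*. Without adenoma replicate 3, the log2 fold change of *Fcgbp* was -1.17.

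*Spdef*, the transcription factor of the group, moved in the opposite direction. It was at 4.29, 3.52 and 3.81 in small intestine and at 4.88, 5.21 and 5.26 in adenomas, so that all adenoma arrays were above all small intestine arrays. The log2 fold change was 1.24 (SE 0.237 and adjusted p = 0.00508 by limma). This call was lost without small intestine replicate 2 or 3, or without any of the adenoma arrays, with log2 fold changes of 1.07 to 1.36 and adjusted p of 0.0128 to 0.0242. With slide as a block the limma adjusted p was 0.0107, and in a fit of all 5 groups it was 0.0364. Of the 10 alternatives that kept all arrays, 6 kept the call of *Spdef*. *Agr2*, the protein disulfide isomerase, was at 7.58, 6.79 and 6.52 in small intestine and at 7.94, 8.12 and 7.89 in adenomas. The groups did not overlap, and the log2 fold change of 1.02 (SE 0.282 and adjusted p = 0.0211 by limma) did not pass the thresholds. Without small intestine replicate 1, the array nearest to the adenomas, it was 1.32 with an adjusted p of 0.00155.

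*Retnlb* had the largest difference and the largest spread. It was at -0.08, -3.53 and 0.74 in small intestine and at 3.18, 3.58 and 2.68 in adenomas. All adenoma arrays were above all small intestine arrays, by 17.2-fold on average, but small intestine replicate 2 was far below the other 2 arrays. The log2 fold change of 4.10 (SE 1.02) had a limma adjusted p of 0.0140, and without small intestine replicate 2 it was 2.81 with an adjusted p of 0.0028. *Muc2*, the mucin itself, was at 6.69, 5.74 and 6.17 in small intestine and at 5.72, 5.55 and 6.13 in adenomas. These ranges overlapped, and the log2 fold change was -0.40 (SE 0.283 and adjusted p = 0.263 by limma). *Spink4* was at 8.54, 8.29 and 8.18 in small intestine and at 8.28, 8.48 and 8.22 in adenomas, a log2 fold change of -0.01 (SE 0.172 and adjusted p = 0.963 by limma).

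**Figure D2:**
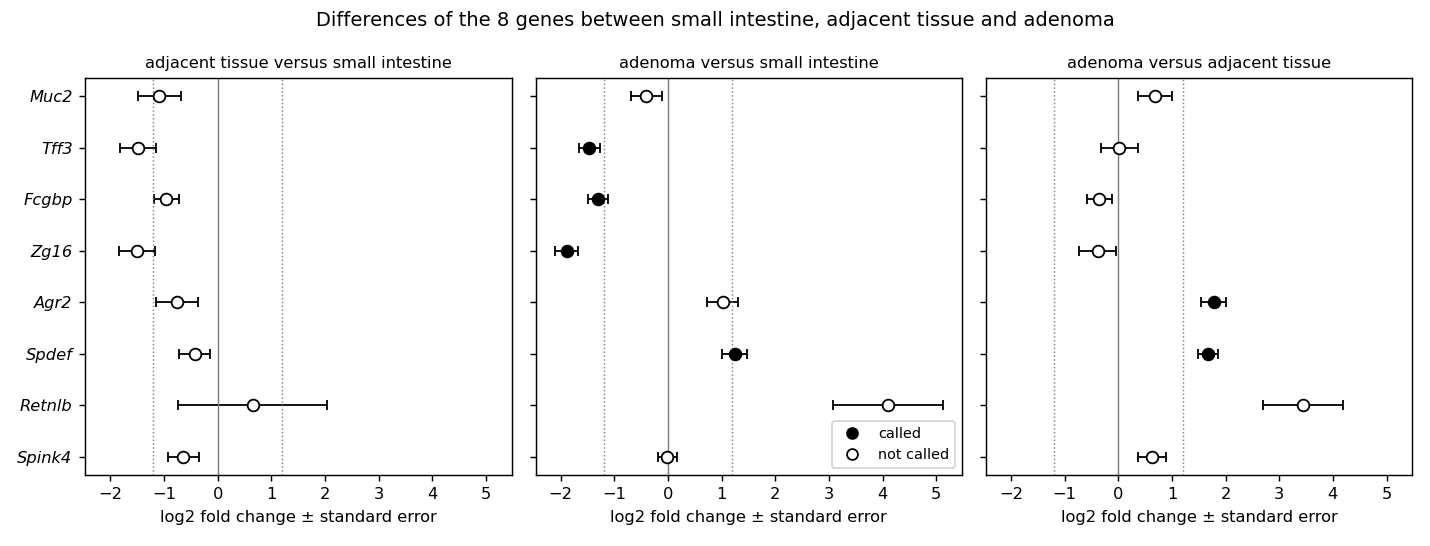
Log2 fold change of each gene in 3 comparisons (horizontal axis, points with bars of 1 SE from limma), with filled points for called genes and dotted lines at the fold threshold of 1.2. *Tff3*, *Fcgbp* and *Zg16* lie left of 0 in adjacent tissue and in adenomas against small intestine and near 0 between adenomas and adjacent tissue, whereas *Agr2* and *Spdef* lie right of 0 in both comparisons of adenomas.

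The arrays lay on 2 slides, each with arrays of all groups. Within slide 1 (2 arrays a group) the adenoma minus small intestine difference was -2.07 for *Zg16*, -1.57 for *Tff3*, -1.45 for *Fcgbp* and 1.02 for *Spdef*. Within slide 2 (1 array a group) it was -1.54, -1.26, -1.01 and 1.69 for the same genes. The difference between genes within an array does not depend on how arrays are scaled. *Agr2* minus *Zg16* was -2.33, -3.33 and -3.75 on the small intestine arrays, -2.54 and -2.24 on the adjacent arrays and -0.09, -0.47 and -0.13 on the adenoma arrays. *Spdef* minus *Tff3* was -4.96, -5.92 and -5.62 in small intestine, -4.89 and -4.00 in adjacent tissue and -3.09, -2.96 and -2.32 in adenomas. In both pairs the adenoma arrays were above all arrays of small intestine and adjacent tissue. Colon was not below adenomas throughout, with *Agr2* minus *Zg16* at -1.08, -0.43 and -2.67 and *Spdef* minus *Tff3* at -3.25, -0.90 and -5.06. The pairs were chosen after their values were seen, and no test is given.

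**Figure D3:**
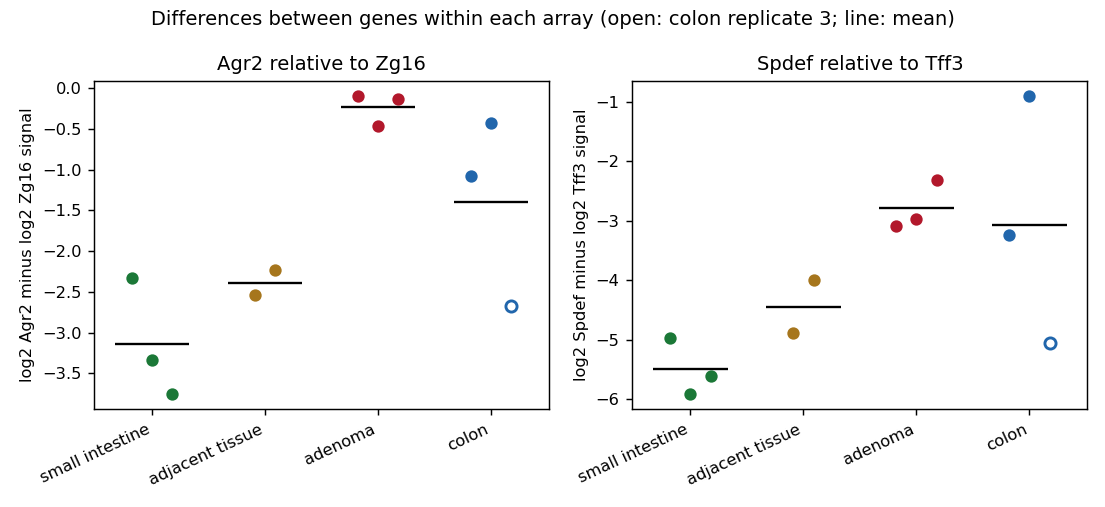
Log2 signal of *Agr2* minus that of *Zg16* and of *Spdef* minus that of *Tff3* on each of the 11 tissue arrays (points; lines are group means; the open point is colon replicate 3). The adenoma arrays, at -0.47 to -0.09 and at -3.09 to -2.32, lie above the small intestine and adjacent arrays in both panels, while 1 colon array, replicate 2, lies within the adenoma range in the first panel and above it in the second.

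Other cell types of the tissue moved along with these genes. Of 9 epithelium genes, 1 was overexpressed (*Krt18*) and 4 were underexpressed in adenomas (*Vil1*, *Krt20*, *Cldn7* and *Cldn3*), with a median log2 fold change of -0.88 beside -0.15 for all probes. Their summed level (log2) was 10.74 to 10.999 on adenoma arrays and 11.41 to 11.72 on small intestine arrays. Of 10 enterocyte markers 6 were underexpressed and 0 overexpressed, with a median log2 fold change of -2.74. Of 5 Paneth cell markers 3 were underexpressed, and of 7 genes of stroma and smooth muscle 2 were overexpressed and 1 underexpressed. Each enterocyte, Paneth and stromal marker exceeded background on all 6 arrays, so no defining marker was at 0. Their part in the changes of the goblet cell genes was not tested, and in whole tissue fewer goblet cells and less RNA per goblet cell cannot be told apart.

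The genes that work beside the 8 also moved in both directions. Of 12 other goblet cell products and markers, 7 were underexpressed and 1 was overexpressed in adenomas compared with small intestine, with a median log2 fold change of -1.42. *Ang4*, an angiogenin that Paneth cells also make and one of a family of closely related genes, fell by 4.83 on the log2 scale (SE 0.329, adjusted p = 0.000124 by limma). It is in the list of Paneth cell markers as well, so the counts of both lists share this gene in every comparison. *Scin*, an actin-severing protein, fell by 3.75, *Clca3*, a mucus granule protein, fell by 2.99 and *Capn9*, a calpain of the gut, fell by 2.12. *Bace2*, an aspartyl protease, was the overexpressed one, at 1.99. Of 12 genes for mucin glycosylation and folding, 3 were overexpressed and 0 underexpressed, with a median of 0.77. The overexpressed ones were *Galnt3* (1.43) and *Galnt12* (1.23), enzymes that start O-glycans, and *Txndc5* (1.21), a thioredoxin-like protein of the endoplasmic reticulum. The largest difference of this list was that of *B3gnt6*, the enzyme that makes the core 3 O-glycan, at -2.43 with a limma adjusted p of 0.0101, which did not pass.

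The list of 10 transcription factors of the secretory lineage also held *Hes1*, which restrains that fate, and *Sox9*, so its counts and median are not those of factors promoting it alone. Of the 10, 5 were overexpressed and 1 was underexpressed in adenomas compared with small intestine. *Sox9*, a factor of the crypt base, rose by 3.15 on the log2 scale (adjusted p = 0.000288 by limma), from -0.25 ± 0.51 to 2.90 ± 0.25 (SD, n = 3). *Creb3l4* rose by 1.94 and *Foxa1*, a winged-helix factor, by 1.85, with limma adjusted p of 0.00373 and 0.0067. *Foxa3* (1.37) and *Creb3l1* (1.21), named to complete the count, were the other overexpressed factors. *Klf4*, a factor of goblet cell differentiation, fell by 3.06 (adjusted p = 0.000313 by limma), from 5.78 ± 0.47 to 2.72 ± 0.32 (SD, n = 3). *Atoh1*, the master factor of the secretory lineage, had a log2 fold change of -1.23 with an adjusted p of 0.0103 and was not called.

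Relatives of the 8 genes that are normally made in stomach or other tissues formed a further list of 9 genes, of which 8 were tested. Of these, 5 were overexpressed in adenomas compared with small intestine and 1 was underexpressed, with a median log2 fold change of 2.47. *Tff1* and *Tff2*, the trefoil peptides of the stomach, were at 5.71 ± 0.25 and 6.56 ± 0.57 (SD, n = 3) in adenomas. Each exceeded background on only 1 of 3 small intestine arrays, so that the increase was at least 528-fold and at least 682-fold. That array was small intestine replicate 3, and the bounds moved to 1250-fold for *Tff1* and 2240-fold for *Tff2* without it. Without replicate 1 they were 293- and 320-fold, and without replicate 2 that of *Tff2* was 441-fold. Against replicate 3 alone the levels in adenomas were 94.8- and 62.9-fold higher. *Muc6*, a mucin of gastric glands, was at least 131-fold higher, also with 1 of 3 small intestine arrays above background. The part of the site sampled in these differences was not tested. *Tff3*, the intestinal trefoil peptide, was thus underexpressed in the same adenomas in which its gastric relatives were overexpressed. *Retnla*, a relative of *Retnlb*, was at least 13.1-fold lower in adenomas, where it was not well above background on any array, and the bound was 6.15-fold without small intestine replicate 2 and 27.2-fold without replicate 3.

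**Figure D4:**
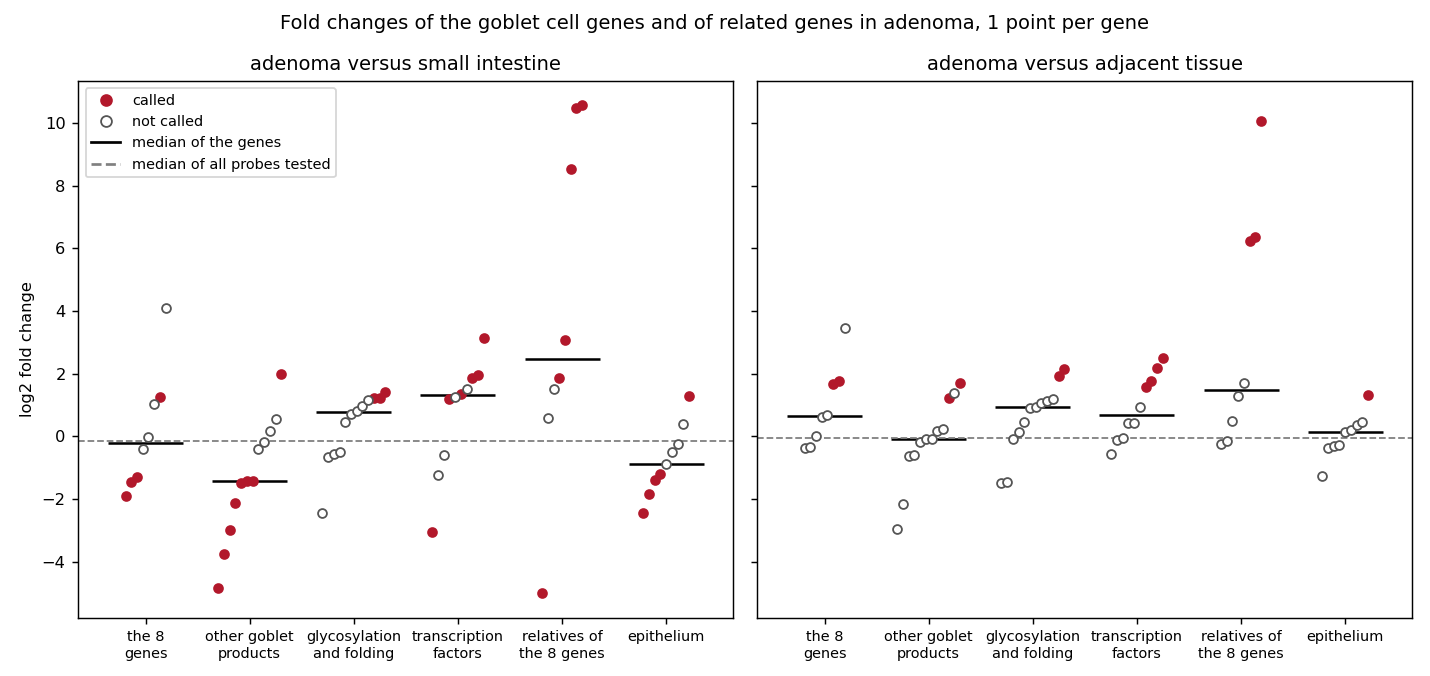
Log2 fold change of each tested gene (points, filled in red where called) of the 8 goblet cell genes and of 5 lists, in adenomas against small intestine and against adjacent tissue, with list medians (black lines) and the median of all probes tested (dashed line). The other goblet cell products have a median of -1.42 against small intestine, while glycosylation and folding genes have 0.77 and transcription factors 1.32.

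Adenomas were next compared with the tissue around them, which carries the same Min allele. *Agr2* and *Spdef* were overexpressed in adenomas by 3.42- and 3.19-fold, and the other 6 genes were not called. *Tff3*, *Fcgbp* and *Zg16*, underexpressed against small intestine, had overlapping ranges here. The 2 calls of 8 stand beside 3.98% of all 29734 probes tested, with 2.27% called higher and 1.71% called lower. On 4 of the 8 genes all adenoma arrays were above both adjacent arrays, beside 27.4% of all probes. Markers of other cell types moved in the same comparison: 2 of 10 enterocyte markers were underexpressed and 0 overexpressed (median -1.83), with a summed level (log2) of 9.06 to 9.79 in adenomas and 11.24 to 11.27 in adjacent tissue. Of 9 epithelium genes *Krt18* and of 7 genes of stroma and smooth muscle *Col1a1* (1.99) were overexpressed, with 0 underexpressed in both lists. Of the 7 stromal genes 4 lay above 0, while *Myh11* (-2.14), *Des* (-1.51) and *Acta2* (-1.33) lay below without a call. Of 5 Paneth cell markers 0 were called in limma, with a median of -1.47. An unadjusted p under 0.05 in limma was found for 4 of them, beside 11324 of all probes. Of these 4, *Itln1*, *Ang4* and *Defa21* were lower and *Mmp7* was higher (0.66). All of these markers exceeded background on the 5 arrays, and their part in the results was not tested.

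*Agr2* was at 6.54 and 5.87 on the adjacent arrays, below the adenoma arrays at 7.94, 8.12 and 7.89. Its log2 fold change was 1.78 (SE 0.236 and adjusted p = 0.00922 by limma). *Spdef* was at 3.52 and 3.37 in adjacent tissue, against 4.88, 5.21 and 5.26 in adenomas, a log2 fold change of 1.67 (SE 0.182 and adjusted p = 0.00608 by limma). Both calls rest on 5 arrays, and with slide as a block the adjusted p was 0.0202 for *Agr2* and 0.0159 for *Spdef*. A fit of all 5 groups gave 0.0196 and 0.0804, and a test of every probe gave 0.0315 and 0.0247, so these settings ended both calls as well. Calls among all probes fell too, from 1182 to 212 with slide as a block, 258 in the fit of all 5 groups and 70 with every probe tested. With 1 array left out, *Agr2* was called only without adjacent tissue replicate 1 (adjusted p of 0.00685 to 0.0513 over the 5 arrays) and *Spdef* in no case (0.0117 to 0.0405), with log2 fold changes of 1.44 to 2.11 and of 1.6 to 1.79. Where an adjacent array was left out, the other one was assumed to vary like the adenomas, so the *Agr2* call that was kept rests on the spread of adenomas alone. The difference kept its sign on both slides, at 1.37 and 2.25 for *Agr2* and at 1.55 and 1.84 for *Spdef*.

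*Retnlb* was at -1.59 and 0.98 in adjacent tissue, below all adenoma arrays, with a log2 fold change of 3.45 (SE 0.744 and adjusted p = 0.0301 by limma). Its adjacent arrays stood far apart, and without replicate 2 of them the log2 fold change was 4.73, with 1 adjacent array assumed to vary like the adenomas. *Muc2*, at 5.57 and 4.67 in adjacent tissue, had a log2 fold change of 0.68 (SE 0.321 and adjusted p = 0.179 by limma), and *Spink4*, at 8.09 and 7.31, one of 0.63 (SE 0.261, adjusted p = 0.139 by limma). *Spink4* was the fourth gene without overlap. *Tff3*, at 8.40 and 7.37, had an adjacent array on each side of the 3 adenoma arrays, and *Zg16*, at 9.09 and 8.11, had 1 adenoma array between its adjacent arrays and 2 below them. Of the related genes, 4 of 10 transcription factors were overexpressed in adenomas compared with adjacent tissue and 0 were underexpressed, led by *Creb3l4* (2.502) and *Sox9* (2.17), with *Foxa1* (1.77) and *Foxa3* (1.57). Of 12 genes for glycosylation and folding, *Ern2* (2.14), a stress sensor of the endoplasmic reticulum in secretory epithelium, and *Galnt3* (1.93) were overexpressed, and 0 were underexpressed. Of 12 other goblet cell products, *Pla2g10* (1.71) and *Klk1* (1.24) were overexpressed and 0 were underexpressed, with *Ang4* at -2.95 and an adjusted p of 0.0583. *Klk1* and *Pla2g10* were named after their values were seen, and *Klk1* belongs to a family of near-identical genes, so its probe may read relatives. Of 8 relatives tested, *Tff2* (at least 1070-fold, with 1 of 2 adjacent arrays above background, and 582- or 1950-fold without replicate 1 or 2 of these), *Tff1* (6.35) and *Muc6* (6.25) were overexpressed and 0 were underexpressed.

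Adjacent tissue was also compared with healthy small intestine. *Tff3*, *Fcgbp* and *Zg16* lay lower here too, and in all, 6 of the 8 genes lay lower on both adjacent arrays than on all small intestine arrays, beside 30.9% of all probes. None of the 8 was called in limma, beside 2 of all 28833 probes (0.00694%). An unadjusted p under 0.05 in limma was found for 4 of the 8, beside 8748 of all probes. *Zg16* had the largest of these differences, -1.51 (SE 0.337, adjusted p = 0.0663 by limma), followed by *Tff3* at -1.49 (0.0677), *Muc2* at -1.08 (0.137) and *Fcgbp* at -0.95 (0.0721). *Spink4* and *Spdef* had log2 fold changes of -0.64 and -0.43, with the nearest *Spdef* arrays of the groups both at 3.52. *Agr2* overlapped through the adjacent array at 6.54, and *Retnlb* had ranges of -1.59 to 0.98 and of -3.53 to 0.74. The adjacent arrays differed from each other by 0.15 for *Spdef* and by 0.44 to 1.04 for the other genes apart from *Retnlb*, with replicate 1 higher for all of these 7 genes. On the adjacent arrays the median of the 9 epithelium genes was 7.43 and 7.57 against 7.46 to 8.38 on the small intestine arrays. Their summed level (log2) did not overlap, at 10.49 and 10.85 against 11.41 to 11.72. The log2 fold change was above 0 for 0 of these 9 genes, and their part in the results was not tested. None of the genes of the 5 further lists was called either. An unadjusted p under 0.05 in limma was found for 8 of the 12 other goblet cell products (median -1.36). It was found for 5 of the 9 epithelium genes (median -0.89), and both counts stand beside the 8748 probes.

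Colon and small intestine were compared with colon replicate 3 in mind. In all 3 colon arrays *Spdef* and *Retnlb* were above every small intestine array, and the other 6 genes overlapped through colon replicate 3 alone. The 2 genes above on all 3 colon arrays stand beside 11.6% of all 27302 probes. On the other colon arrays *Muc2* and *Agr2* also lay above every small intestine array, and *Tff3*, *Fcgbp*, *Zg16* and *Spink4* lay below. The share of all probes without overlap on those arrays was not computed, so this separation is no result about the goblet cell genes. Without colon replicate 3, calls among all probes rose as well, from 2 to 1772. No gene of the 8 was called in limma, beside 2 probes (0.00733%). An unadjusted p under 0.05 in limma was found for 4 of the 8, beside 6414 of all probes. *Spdef* was at 5.12, 6.37 and 4.36 in colon, a log2 fold change of 1.41 (SE 0.525 and adjusted p = 0.178 by limma). *Retnlb* was at 0.80, 7.04 and 7.75 in colon, with the first array just above the highest small intestine array at 0.74. Its SD in colon was 3.82 (n = 3), the largest of any gene of the 8 in any group, and its log2 fold change of 6.15 had an SE of 2.0 (adjusted p = 0.146 by limma). *Muc2* was at 7.20, 8.36 and 6.65 in colon, a log2 fold change of 1.201 (SE 0.488 and adjusted p = 0.204 by limma), with colon replicate 3 below small intestine replicate 1.

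Colon replicate 3 was the colon array closest to small intestine for several of the genes. For *Tff3* it was at 9.42, against 8.36 and 7.27 on the other colon arrays, and for *Zg16* at 10.12, against 8.99 and 8.80, both within the small intestine range. For *Spdef* and *Muc2* it was the lowest colon array. Without it, the colon minus small intestine difference was 1.58 for *Muc2*, 1.87 for *Spdef* and 1.18 for *Agr2* (limma adjusted p of 0.0466, 0.0285 and 0.0641). For *Tff3* it was -1.56 and for *Zg16* -1.21 (0.0270 and 0.0161), with differences of -0.61 for *Fcgbp* and -0.52 for *Spink4* (0.105 and 0.177). *Retnlb* went against this closeness, since colon replicate 3 was its highest array, and without it the difference was 4.88 (limma adjusted p = 0.122). No gene of the 8 was called without it either, while 1772 of all 27302 probes were, against 2 with it. Of the 12 other goblet cell products, 0 were called with all colon arrays (1 at an unadjusted p under 0.05 in limma) and 2 were overexpressed in colon without this array; of the 10 transcription factors these counts were 0 (5 unadjusted) and 2.

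Adenomas were compared with colon as well. *Muc2*, *Fcgbp* and *Zg16* were lower on all adenoma arrays than on all colon arrays, as were 18.9% of the 29174 probes. The other 5 genes overlapped, *Spink4* through colon replicate 3 alone. No gene of the 8 was called in limma, beside 3.42% of all probes (1.98% higher and 1.44% lower). An unadjusted p under 0.05 in limma was found for 3 of the 8, beside 8269 of all probes. The log2 fold changes were -1.601 for *Muc2* (SE 0.456, adjusted p = 0.0731 by limma), -1.09 for *Zg16* (SE 0.396, adjusted p = 0.133) and -0.95 for *Fcgbp* (SE 0.303, adjusted p = 0.0975). Without colon replicate 3, *Muc2* was at -1.98 with an adjusted p of 0.0146, and *Zg16* and *Fcgbp* were at -0.68 and -0.70. *Agr2* and *Spdef*, which were overexpressed in adenomas against adjacent tissue, overlapped with colon, with differences of 0.07 and -0.17 (SEs 0.274 and 0.504). Without colon replicate 3, calls among all probes rose from 999 to 3083, and the counts of lists without that array stand beside this rise. Of the 12 other goblet cell products, 3 were underexpressed in adenomas (*Scin*, *Clca3* and *Bcas1*) and 0 overexpressed, and without colon replicate 3 the count was 7. Of the 10 transcription factors, *Klf4* was underexpressed (-2.74, adjusted p = 0.00289 by limma) and *Atoh1* had a log2 fold change of -2.13 with an adjusted p of 0.079, and without colon replicate 3 the count was 5 of 10. Of the 9 relatives, 5 were overexpressed, led by *Tff1* (at least 1090-fold), *Tff2* (at least 768-fold, and 1410-fold without colon replicate 2) and *Muc6* (at least 155-fold), and *Retnla* was underexpressed, and 6 were overexpressed without colon replicate 3. Other cell types moved here too. Of 7 genes of stroma and smooth muscle *Acta2* (-2.20), *Myh11* (-2.75) and *Des* (-2.72) were underexpressed and 0 overexpressed, with a summed level (log2) of 6.61 to 6.72 in adenomas and 7.18 to 7.86 in colon. Of 10 enterocyte markers 0 were called in limma (4 at an unadjusted p under 0.05, median 4.66), and 8 were overexpressed without colon replicate 3. Of 5 Paneth cell markers *Defa21*, from a family of near-identical genes and not above background in colon, was overexpressed, and 4 were without colon replicate 3. Their part in the results was not tested.

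In CT26 cells 5 of the 8 goblet cell genes were not above background on any array, *Tff3* and *Spink4* were above it on 1 of 3 arrays and *Spdef* on all 3. All 8 genes were underexpressed compared with colon, beside 36.4% of all 29398 probes called, 21.5% higher and 14.9% lower. All but *Spdef* entered this test through colon alone, so their calls set colon against signal at or near background. Every CT26 array was below every colon array for all 8 genes, beside 22.6% of all probes. The median of all probes was 0.37 higher in CT26 than in colon on the log2 scale, in the direction opposite to these genes.

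*Muc2* was at -6.90, -7.13 and -7.48 on the CT26 arrays, none of them well above background. The lowest signals counted as above background on these arrays lay at -4.59, -5.17 and -6.07, so the level of *Muc2* was at least 6560-fold lower than in colon. *Zg16*, *Fcgbp*, *Agr2* and *Retnlb* were likewise not above background on any CT26 array, with decreases of at least 21400-, 13100-, 9320- and 1420-fold. The bound of *Retnlb* followed its spread in colon, at 6540-fold without colon replicate 1, 753-fold without replicate 2 and 588-fold without replicate 3. *Tff3* and *Spink4* were above background on 1 of 3 CT26 arrays each, with decreases of at least 7500- and 7610-fold. *Spdef* was the only one of the 8 genes well above background on all CT26 arrays, at -4.44, -3.74 and -3.68. Its decrease was 603-fold, a log2 fold change of -9.24 (SE 0.526 and adjusted p = 8.99e-06 by limma). The limma adjusted p of the other 7 genes was 5.42e-07 to 0.000582. Each of the 8 was called without any 1 array, colon replicate 3 included. For those 7 genes these values are no support beyond the levels, since they were tested only through colon.

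**Figure D5:**
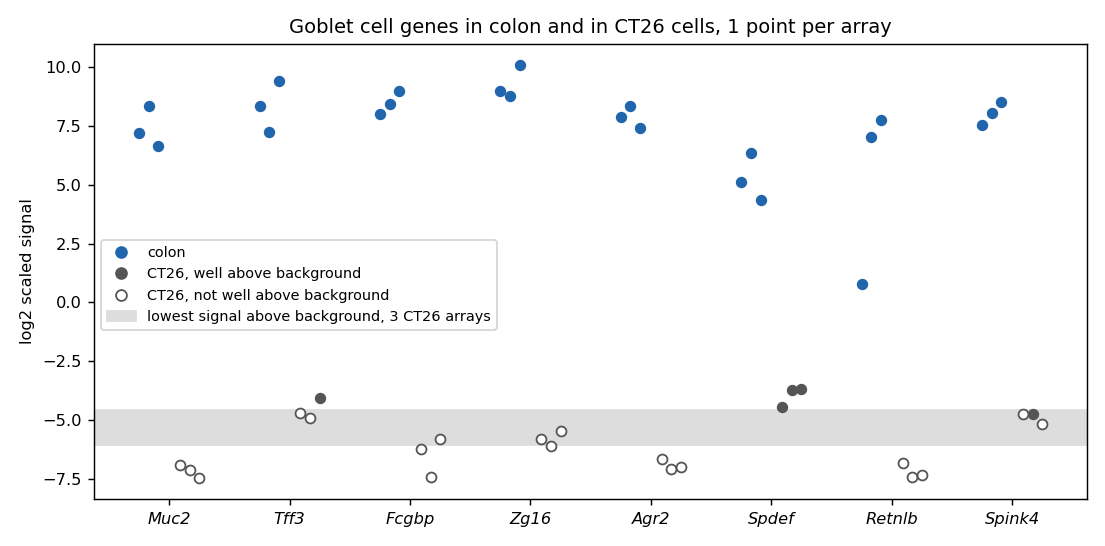
Level of the 8 goblet cell genes on the colon arrays (blue) and the CT26 arrays (grey), as log2 signal relative to the 75th percentile of the array, with open points for spots not well above background. The grey band spans the lowest signals counted as above background on the 3 CT26 arrays, and *Spdef* is the gene with all 3 CT26 arrays above background.

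Epithelial genes in general were low in CT26: 9 of 9 epithelium genes were underexpressed, with a median of -12.20, and 3 to 4 of them were above background on a CT26 array. The sum of the 9 genes (log2) was 5.19 to 5.82 in CT26 and 10.66 to 11.63 in colon. Of 12 other goblet cell products 11 were underexpressed, and of 12 genes for glycosylation and folding 10, with 0 overexpressed in both. Of 10 transcription factors 7 were underexpressed and 0 overexpressed, and 9 were underexpressed without colon replicate 3. Without that array 11200 of all probes were called, against 10711 with it. *Klf4* and *Foxa1* remained well above background in CT26, at 4.52 ± 0.20 and 1.88 ± 0.29 (SD, n = 3), while *Atoh1* and *Foxa2* were not above background on any CT26 array. The part of the epithelial genes in the decrease of the 8 genes was not tested.

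Across the 5 groups, the order of the levels differed between the 8 genes, and it is given as a description. *Tff3*, *Fcgbp* and *Zg16* had their highest mean in small intestine, then colon, and the lowest tissue mean in adenomas or adjacent tissue. For these 3 genes the ranges of neighbouring tissues in this order overlapped in every case, those of small intestine and colon through colon replicate 3 alone. *Muc2* had its highest mean in colon (7.40 ± 0.87, SD, n = 3), followed by small intestine, adenomas and adjacent tissue (5.12 ± 0.63, n = 2), again with overlap between neighbours. Here too, colon and small intestine overlapped through colon replicate 3 alone. *Spdef* was ordered colon, adenoma, small intestine, adjacent tissue, with no overlap between adenomas and small intestine or between small intestine and adjacent tissue. *Agr2* had its highest mean in adenomas (7.98 ± 0.12, n = 3) and its lowest tissue mean in adjacent tissue (6.21 ± 0.47, n = 2). *Retnlb* was ordered colon, adenoma, adjacent tissue, small intestine, with no overlap between adenomas and adjacent tissue. *Spink4* differed least between tissues, with means of 7.70 to 8.34 and overlapping neighbours throughout, adenomas and colon through colon replicate 3 alone. CT26 was the lowest group for all 8 genes, with no overlap with any tissue.

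The closeness of 2 profiles was measured as the root mean square difference of their centred log2 levels. Over the 11 tissue arrays, *Tff3* and *Zg16* (0.34), *Fcgbp* and *Zg16* (0.34) and *Agr2* and *Spdef* (0.36) were the closest pairs of the 8 genes. *Tff3* and *Spdef* were apart by 1.48, and *Retnlb* was 2.71 or more from every other gene. *Zg16* minus *Tff3* was 0.66, 0.68 and 0.85 on the small intestine arrays, 0.68 and 0.74 in adjacent tissue and 0.06, 0.41 and 0.44 in adenomas. On the colon arrays it was 0.63, 1.53 and 0.70, with colon replicate 2 apart from the others. Likeness to 15253 other genes was measured over all 14 arrays, where *Muc2*, *Fcgbp*, *Zg16*, *Agr2* and *Retnlb* have no level above background in CT26, so that these ranks rest in part on background signal. There *Fcgbp* and *Zg16* were each other's nearest gene (0.38), *Lypd8* was nearest to *Muc2* (0.56), *Degs2* to *Tff3*, *Krt19* to *Agr2*, *Hgfac* to *Spdef*, *Perp* to *Spink4* and *Mal* to *Retnlb* (1.90). Over the 11 tissue arrays the nearest genes were others throughout. They were *Gfi1* for *Muc2* (0.32), *Galnt12* for *Spdef* (0.27), *Neurl1a* for *Agr2* (0.30), *Camsap3* for *Fcgbp* (0.17), *Ssr2* for *Spink4* (0.15) and *Fut2* for *Retnlb* (1.84). The distances are a description and depend on which arrays are taken.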

How the data were processed

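Labelled RNA of 14 samples was hybridized to one-color Agilent arrays, and groups were taken from the sample labels. The authors deposited, per array, the spot intensity written by Feature Extraction 10.7.3.1, corrected for background but not normalized across arrays. A deposited table holds the authors' normalized log2 values, made by a method not given in the sources used here, with fold changes and p-values of 7 comparisons that were not used. Here, control and outlier spots were left out, log2 was taken, each array was centred on its 75th percentile and replicate spots were averaged. Pairs of groups were compared with limma 3.58.1 (R 4.3.3, lmFit and eBayes) on their own arrays, over probes that exceeded background on all arrays of either group, with Benjamini-Hochberg adjustment over all of these probes. The procedure was tested on simulated data. Probes of listed genes were named through RefSeq accessions of GRCm38.p6 (26582 probes) or by the file (29099 probes), and the brightest probe on average stood for a gene. A fold against probes not above background is a bound, taken per array from the lowest signal above background, or from the probe where that was brighter. The 8 genes and the lists were chosen with earlier results of these data known. Of each list, all genes were counted and at most 4 with the largest change were to be named; other names were added where a count was small. Alternatives were the authors' table, normexp (offset 50), quantile normalization, other probe filters, a fit of all groups, blocking on slide or on replicate number, an intensity trend, other thresholds, the mean of probes of a name and the omission of each array. Counts of the lists without colon replicate 3, and bounds with each array left out, were added after seeing the data. Numbers of arrays limit the precision, since an array has no counted depth. Replicate numbers were not taken to pair samples.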

Additional observations from a re-analysis of the deposited data

How the results depend on the processing

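The count of goblet cell genes called in adenomas against small intestine was 4 (1 higher, 3 lower), beside 6462 of all probes. It was 3 (2 higher, 1 lower) in the authors' table, 2 with quantile normalization and 1 in a fit of all 5 groups, beside 4445, 6239 and 5047 probes. With 1 array left out it was 2 to 5, beside 4285 to 7767 probes, the lowest count without adenoma replicate 3. Against adjacent tissue the count was 2, beside 1182 of all probes. It was 0 with every probe tested, in a fit of all 5 groups, with slide as a block and with the replicate block. In these settings 70, 258, 212 and 104 of all probes were called, so calls fell for the probes at large. With an adenoma array left out, 0 to 75 of all probes were called. In CT26 against colon the count of 8 became 1 when probes had to be above background in both groups, since 7 of the 8 genes were then not tested. The counts of 0 in the other 3 comparisons were 0 under all alternatives. Of the log2 fold changes of single genes, 688 values kept direction and call, 33 lost the call, 6 gained it and 18 changed sign. The 688 include those from the mean of probes of a name, which could not differ with 1 probe a gene.

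Those that changed sign had not been called. In adenomas against small intestine, *Muc2* was 0.007 in the authors' table, and *Spink4* was 0.33 there, 0.023 with normexp, 0.255 with quantile normalization and -0.089 to 0.090 with 1 array left out. Against adjacent tissue, *Tff3* was -0.014 with slide as a block. With 1 array left out it ran from -0.497 (without adjacent tissue replicate 2) to 0.539, and *Zg16* ran from -0.874 to 0.105 (without adjacent tissue replicate 1). In adjacent tissue against small intestine, *Retnlb* ran from -0.634 (without small intestine replicate 2 or adjacent tissue replicate 2) to 1.939. In adenomas against colon, *Agr2* was -0.011 with slide as a block and ran from -0.161 (without colon replicate 3) to 0.305. There *Tff3* ran from -0.984 to 0.091 (without colon replicate 3) and *Spdef* ran from -0.626 (without colon replicate 3) to 0.377 (without colon replicate 2). The cause was not tested.

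With the replicate block, 3 genes were called in adenomas against small intestine and 8 in CT26 against colon, beside 5785 and 8432 of all probes. The replicate numbers do not mark shared animals, and deviations of same-numbered arrays correlated at -0.275 to 0.322. In their titles the adjacent arrays carry numbers that differ from their replicate numbers, while those of the adenoma arrays are the same. Adenoma and adjacent arrays with the same number in the title were therefore not set against each other, and such a pairing was not tested. The block stands for no known pairing. Groups of 2 and 3 arrays limit all of these results.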
